A study of Mus musculus with 16 samples.

Results

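The ligands of PD-1 and their relatives among the B7 and nectin molecules were followed through bulk RNA-seq of mouse tumors. The 9 genes Cd274, Pdcd1lg2, Cd80, Cd86, Icosl, Cd276, Vsir, Pvr and Nectin2 were matched by symbol to the 53465 genes of the counts matrix, and all 9 passed the filter on low counts and stood among the 18251 genes tested. B7 ligands sit mainly on antigen-presenting cells, and some also on tumor cells and stroma, and they tell a T cell how to react once its antigen receptor is engaged. PD-L1 (Cd274) and PD-L2 (Pdcd1lg2) bind PD-1 and restrain the cell, CD80 and CD86 drive it through CD28 or brake it through CTLA-4, and ICOSL works through ICOS. PVR and NECTIN2 are shared by the activating receptor CD226 and the inhibitory receptor TIGIT, VISTA (Vsir) is an inhibitory molecule of myeloid and T cells, and the receptor of B7-H3 (Cd276) is not settled.

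The 16 tumors came from 16 female C57BL/6 mice. At 6 to 8 weeks of age the mice were injected with MC38 cells, a mouse colorectal carcinoma line, under the skin of the right flank. Mice entered at tumor volumes of 150 to 250 mm3 and were given 200 µg of IgG control antibody or of antibody against PD-1 (aPD-1) on days 16 and 20. Tumors were taken on day 21. There were 8 IgG tumors, 6 aPD-1 Non-Responder tumors (NR) and 2 aPD-1 Responder tumors (R). The study had split the treated tumors by CD8 T cell staining of the same tumors, so the treatment was assigned to mice at random but the response class was read from the tissue. RNA came from 2 sections of 100 µm of each tumor. Levels are given in CPM, read counts scaled to a common library size after TMM normalization. Tumors are named by the number in their label, from IgG 1 to R 16.

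Total counts lay between 26603497 and 39948901 per tumor, and the 16 tumors are separate mice. The 2 responder tumors stood apart from the other 14. Summed B cell markers reached 301 and 1202 CPM against 1.55 to 7.82 CPM elsewhere, and lymph node stroma and high endothelial venule markers 130 and 423 CPM against at most 4.58 CPM. Adipocyte markers reached 83.9 and 491 CPM against at most 23.7 CPM, and T cell markers 233 and 253 CPM against 8.27 to 35.9 CPM. The summed epithelial markers, 8 keratin, adhesion and intestinal genes, reached 4.67 to 12.5 CPM in IgG and NR tumors and 50.7 and 117 CPM in responders. Cdx2, a defining factor of intestinal epithelium, had 0 counts in every aPD-1 tumor and at most 1 count in an IgG tumor. The part of these cells in the ligand differences was not tested, and in bulk tissue fewer cells of a type cannot be told apart from less RNA per cell. IgG 6 carried 1543 CPM of skeletal muscle markers, and IgG 1, NR 9 and NR 14 had the highest mitochondrial shares of counts, at 7.60%, 6.00% and 5.73%.

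The promoter stretches of the 3 ligands with the largest log2 fold changes between responder and IgG tumors are shown first, because 2 of them are neighbors on chromosome 19 and yet had very unequal levels. Each is the 250 bases before the RefSeq start on GRCm38.p6, read 5′ to 3′, and capitals mark the only match among the motifs searched.
Cd274, chr19:29367188-29367437, plus strand: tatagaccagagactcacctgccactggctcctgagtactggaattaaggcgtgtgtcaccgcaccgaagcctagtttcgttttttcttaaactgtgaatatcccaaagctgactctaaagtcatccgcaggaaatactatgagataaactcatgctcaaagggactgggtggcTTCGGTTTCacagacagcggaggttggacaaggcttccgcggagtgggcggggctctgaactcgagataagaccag
Pdcd1lg2, chr19:29410669-29410918, plus strand: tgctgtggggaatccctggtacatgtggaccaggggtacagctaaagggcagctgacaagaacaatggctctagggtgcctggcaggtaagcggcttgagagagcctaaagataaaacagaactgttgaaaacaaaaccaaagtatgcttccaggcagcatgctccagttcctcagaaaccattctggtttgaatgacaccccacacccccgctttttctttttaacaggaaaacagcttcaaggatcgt
Icosl, chr10:78069118-78069367, plus strand: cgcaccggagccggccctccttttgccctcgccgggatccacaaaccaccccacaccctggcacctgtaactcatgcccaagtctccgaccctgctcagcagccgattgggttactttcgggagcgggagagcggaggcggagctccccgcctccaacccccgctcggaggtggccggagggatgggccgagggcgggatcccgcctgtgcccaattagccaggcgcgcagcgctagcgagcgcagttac
The capitals in Cd274 are a match to GAAANNGAA on the opposite strand, a short form of the element read by interferon regulatory factors, from 76 to 68 bases before the start. RefSeq windows were found for 7 of the 9 genes (Cd274, Pdcd1lg2, Cd80, Icosl, Cd276, Vsir and Nectin2), and this match was the only one in them to the exact letters of 4 motifs searched on both strands. GAAANNGAA was held by 7.13% of all 32851 promoter windows of that length, the gamma-activated site TTCNNNGAA by 7.02% and a strict form of the kappaB site (GGGA, any base, then TTTCC) by 0.356%. Looser forms of the kappaB site were not searched, so the windows may hold them. The interferon-stimulated response element, which is GAAANNGAA with a further A at its end and so overlaps it, was held by 2.98%. The windows differed in base composition: the dinucleotide CpG occurred 29 times in Cd276, 23 times in Icosl, 16 times in Nectin2, 11 times in Cd274 and 9 times in Vsir, but 3 times each in Pdcd1lg2 and Cd80, against a median of 6 over all windows.

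Per kilobase of exon, with all annotated exons of a gene merged, Cd274 (PD-L1) was the leading ligand in every group. This length was 3622 bases for Cd274 and 6122 bases for Pvr, and the length of the transcripts expressed was not determined. In CPM not divided by length, the IgG median was higher for Pvr, at 53.2, than for Cd274, at 45.9. In the 8 IgG tumors Cd274 had a level of 12.8 ± 2.92 CPM per kilobase (SD, n = 8), followed by Pvr at 9.26 ± 2.02, Vsir at 7.72 ± 1.38 and Cd86 at 4.64 ± 1.10. Lower levels were those of Nectin2 at 3.598 ± 0.624, Icosl at 1.95 ± 0.404, Cd276 at 1.49 ± 0.569, Cd80 at 0.544 ± 0.212 and Pdcd1lg2 at 0.354 ± 0.249. Cd274 lay above Pvr in 8 of 8 IgG tumors (exact sign-flip permutation test, two-sided, p = 0.00781, the smallest that 8 tumors allow). Of the 8 neighboring steps, 2 had an exact p above 0.05 in IgG tumors, Pvr over Vsir (exact p = 0.0547) and Cd80 over Pdcd1lg2 (exact p = 0.109). Icosl lay above Cd276 in 6 of 8 IgG tumors (exact p = 0.0391). The order was set from the same tumors, and these p-values are not adjusted over the 8 steps. They cover the spread between tumors, not the exon lengths used. In NR tumors Cd274 reached 21.5 ± 5.13 CPM per kilobase (n = 6), and the order of the first 7 genes by mean was as in IgG tumors. By the same test in NR tumors, Pvr over Vsir had an exact p of 0.3125 and Icosl over Cd276 of 0.219. Cd276 over Pdcd1lg2 had 0.125 and Pdcd1lg2 over Cd80 had 0.344. The order shifted in the responders, where Cd274 at 30.5 ± 15.5 CPM per kilobase (n = 2) was followed by Vsir at 14.4 ± 2.91, Icosl at 10.4 ± 7.56, Cd86 at 8.96 ± 0.295 and Pvr at 8.78 ± 1.58. Among those, Icosl, Cd86 and Pvr each changed places between the 2 responders, and no test can be made with 2 tumors.

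**Figure D1:**
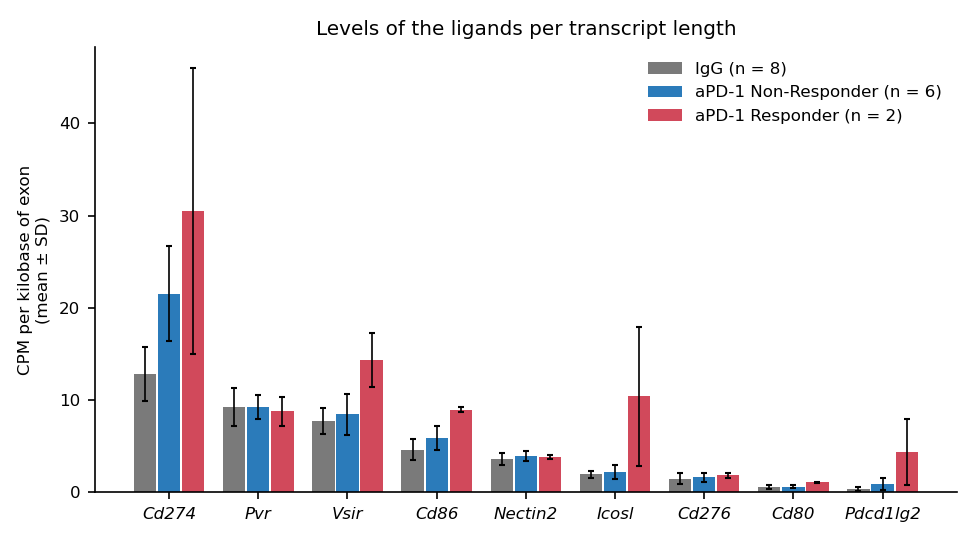
Mean level of each ligand in CPM per kilobase of exon (vertical axis, linear, from 0) in IgG (n = 8), aPD-1 Non-Responder (n = 6) and aPD-1 Responder tumors (n = 2), with bars of 1 SD. Cd274 leads in each group, and the means of Icosl and Pdcd1lg2 rise from 1.95 to 10.4 and from 0.354 to 4.38 CPM per kilobase between IgG and responder tumors.

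Between responders and non-responders, the question the study's response classes pose, 3 of the 9 ligands were higher at an adjusted p below 0.05 and 0 were lower, where 15.4% of all genes tested were called higher. With a 2-fold change in addition, the study's threshold, 2 of 9 were higher (Icosl and Pdcd1lg2), against 12.5% of all genes. The median log2 fold change of the 9 ligands was 0.60, against 0.02 over all genes tested. For 5 ligands (Pdcd1lg2, Cd80, Cd86, Icosl and Vsir) every responder exceeded every non-responder, a pattern that 21.5% of all genes had. Against IgG tumors, 5 of the 9 were higher (Cd274, Pdcd1lg2, Cd86, Icosl and Vsir) where 17.7% of genes were, 3 of them by more than 2-fold where 14.3% of genes were. For 6 ligands both responders exceeded all 8 IgG tumors, as for 19.3% of genes. These comparisons share the responder tumors, and the responders were chosen for T cell content, so neither is independent of the other or of the T cell markers above.

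**Figure D2:**
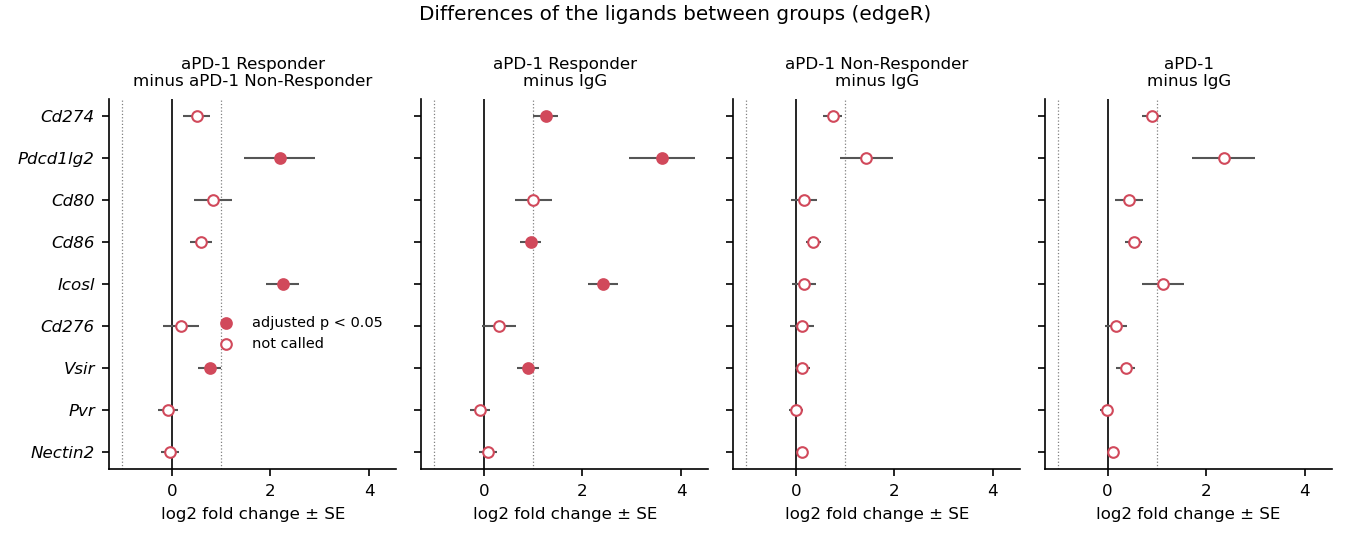
Log2 fold change of each ligand with its standard error (edgeR) in 4 comparisons; filled points passed an adjusted p of 0.05 and dotted lines mark a 2-fold change. Icosl and Pdcd1lg2 have the largest differences in both responder panels, no point is filled in the panels of all treated or non-responder tumors against IgG, and Pvr and Nectin2 lie near 0 throughout.

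No ligand was called between non-responder and IgG tumors, and none of 18251 genes was (0%) with edgeR. The unadjusted edgeR p was below 0.05 for 694 of the 18251 genes, which is no excess over chance. DESeq2 called 10 genes there and 0 ligands. In the comparison of all 8 aPD-1 with 8 IgG tumors edgeR again called 0 ligands and 0 genes (0%), although the unadjusted p was below 0.05 for 2463 genes. DESeq2 called 128 genes, among them Cd274 (log2 fold change 0.89, adjusted p = 0.00620) and Pdcd1lg2 (2.35, adjusted p = 0.0237). At an unadjusted p below 0.05 edgeR had 3 ligands in the former comparison and 4 in the latter. Both comparisons use the same IgG tumors.

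**Figure D3:**
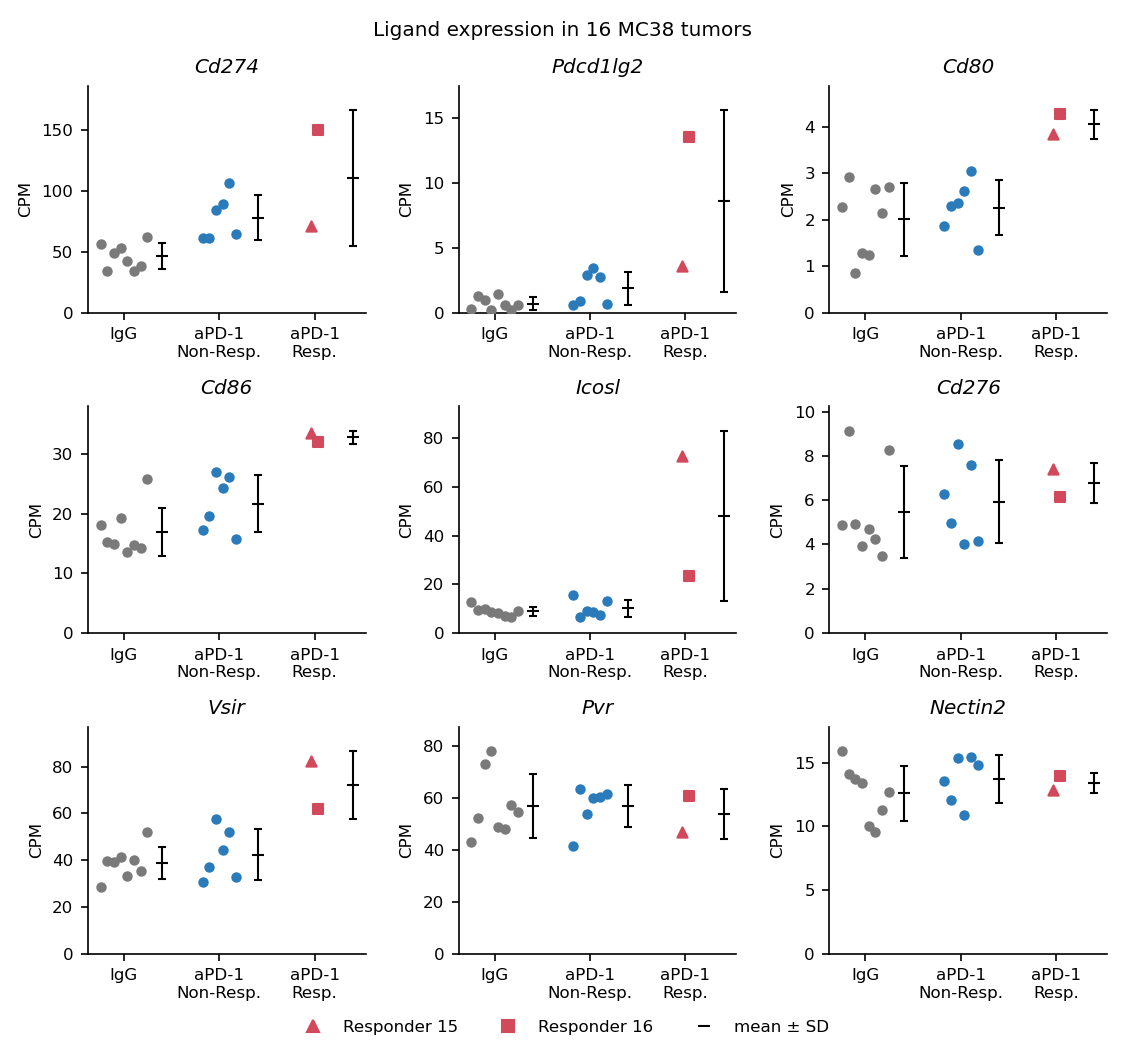
Level of each ligand in CPM (vertical axes, linear, from 0) in every tumor, by group, with the group mean ± SD beside the points; the triangle is R 15 and the square R 16. Cd274 is higher in Non-Responder than in IgG tumors with overlap, and of the responders only R 16 lies above the Non-Responder range. R 16 is the highest tumor for Cd274 and Pdcd1lg2 and R 15 for Icosl and Vsir, and the groups overlap fully for Cd276, Pvr and Nectin2.

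Every treated tumor, of either class, had more PD-L1 transcript than the median control. Cd274 (ENSMUSG00000016496, chr19:29367455-29388095, plus strand, protein coding) ranged from 34.2 to 62.5 CPM in IgG tumors with a median of 45.9, from 61.0 to 107 CPM in NR tumors with a median of 74.6, and stood at 70.9 CPM in R 15 and 150 CPM in R 16. The NR tumors fell into a lower set, NR 9, NR 10 and NR 14 at 61.0, 61.7 and 64.8 CPM, and a higher one, NR 11, NR 12 and NR 13 at 84.4, 89.4 and 107 CPM, while R 15 lay inside their range. Of the lower set, NR 9 and NR 14, but not NR 10, had the highest mitochondrial shares of the NR tumors. All 8 treated tumors exceeded the IgG median and 6 of 8 exceeded every IgG tumor. The difference in mean log2 CPM was 0.86 (exact permutation test, two-sided, p = 0.000466, where 8 against 8 tumors allow 0.000155), from 36 such tests on the ligands, not adjusted. Over all genes tested the log2 fold change was 0.89 ± 0.19 (SE) and the adjusted p 0.153, and in a fit of 3 groups with the treated classes weighted by their numbers the adjusted p was 0.0135.

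Non-responders alone showed the same direction. Cd274 was higher than the IgG median in 6 of 6 NR tumors and above every IgG tumor in 4 of 6, with a log2 fold change of 0.75 ± 0.19 (SE), an unadjusted p of 0.00102 and an adjusted p of 0.763 in edgeR, and an exact permutation p of 0.00167. Responders against IgG gave 1.25 ± 0.26 (adjusted p = 0.00167), which rested on R 16: without it the log2 fold change was 0.56 and the adjusted p 0.238, with the spread of R 15 taken from the other groups. Responders against non-responders gave 0.50 ± 0.28 (adjusted p = 0.242), and without R 16 the sign turned, to -0.19.

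PD-L2, the second PD-1 ligand and typically a molecule of dendritic cells and macrophages, was scarce in all but 1 tumor. Pdcd1lg2 (ENSMUSG00000016498, chr19:29410919-29471161, plus strand) ranged from 0.197 to 1.46 CPM in IgG tumors with a median of 0.590, from 0.610 to 3.44 CPM in NR tumors with a median of 1.83, and reached 3.61 CPM in R 15 and 13.6 CPM in R 16. The higher NR set was again NR 11, NR 12 and NR 13, at 2.88, 3.44 and 2.78 CPM, just under R 15, against 0.610 to 0.881 CPM in NR 9, NR 10 and NR 14. As few as 7 counts stood behind the lowest IgG value and 482 behind R 16. The log2 fold change was 3.62 ± 0.67 (SE) for responders against IgG (adjusted p = 0.000665) and 2.19 ± 0.72 against non-responders (adjusted p = 0.0417). The latter call was lost without any of IgG 8, NR 9, NR 10, NR 14, R 15 or R 16 (adjusted p from 0.0524 to 0.616), and the former without R 16 (2.32, adjusted p = 0.0671). Non-responders against IgG gave 1.43 ± 0.54 (adjusted p = 0.987, exact permutation p = 0.0400). All treated against IgG gave 2.35 ± 0.64 (adjusted p = 0.153, exact permutation p = 0.00948, with 8 of 8 treated tumors above the IgG median).

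The 2 PD-1 ligand genes start 43.5 kb apart on the same strand. The log2 ratio of Cd274 to Pdcd1lg2 per kilobase averaged 5.33 ± 1.17 (SD, n = 8) in IgG, 4.74 ± 0.81 (n = 6) in NR and 2.98 ± 0.57 (n = 2) in responder tumors, and both responders lay below every other tumor. The exact permutation p was 0.0357 against NR and 0.0222 against IgG, each the smallest those group sizes allow, and 0.179 after adjustment over the 20 ratio tests. Of the 7 tested genes that start within 200 kb of either ligand and include both, Jak2, a kinase of interferon gamma receptor signaling 116 kb before Cd274, was higher in responders against IgG (0.69, adjusted p = 0.00661) and against non-responders (0.59, adjusted p = 0.0249). Plgrkt, which starts 0.065 kb from Cd274 on the other strand, differed by 0.29 (adjusted p = 0.151) and 0.08 (adjusted p = 0.758) in the same comparisons. A930007I19Rik, an antisense RNA that overlaps the end of Pdcd1lg2, was called higher in both (2.02, adjusted p = 0.000512, and 1.13, adjusted p = 0.0495). The library kit keeps the strand, but how the counting used it is not given in the sources used here, so reads of this pair could be shared. Insl6 and Ric1 had adjusted p of at least 0.409 in both.

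Among the CD28 and CTLA-4 ligands, CD86 was the more abundant. Cd86 (ENSMUSG00000022901, chr16:36603869-36666081, minus strand) ranged from 13.6 to 25.7 CPM in IgG tumors with a median of 15.1, from 15.7 to 26.99 CPM in NR tumors with a median of 22.03, and stood at 33.6 and 32.1 CPM in R 15 and R 16. Both responders exceeded every other tumor, and the NR tumors again split into 24.4 to 26.99 CPM in NR 11, NR 12 and NR 13 and 15.7 to 19.7 CPM in the rest. Responders were 0.95 ± 0.22 (SE) above IgG on the log2 scale (adjusted p = 0.00370, and 0.105 without R 15) and 0.60 ± 0.23 above non-responders (adjusted p = 0.0819, and 0.0397 without IgG 8). All treated against IgG gave 0.53 ± 0.17 (adjusted p = 0.190, exact permutation p = 0.0146), with 8 of 8 treated tumors above the IgG median.

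Cd80 (ENSMUSG00000075122, chr16:38455561-38496335, plus strand), the ligand with the higher affinity for CTLA-4, ranged from 0.861 to 2.93 CPM in IgG tumors with a median of 2.21, from 1.35 to 3.06 CPM in NR tumors with a median of 2.34, and reached 3.84 and 4.27 CPM in R 15 and R 16. The responders exceeded all other tumors. Cd80 differed by 0.84 ± 0.39 (SE) on the log2 scale from NR tumors (adjusted p = 0.151) and by 1.01 ± 0.37 from IgG tumors (adjusted p = 0.0603). The difference to IgG had an adjusted p of 0.0435 in DESeq2 and 0.0439 without IgG 2. The log2 ratio of Cd86 to Cd80 per kilobase was 3.13 ± 0.62 in IgG (n = 8), 3.26 ± 0.19 in NR (n = 6) and 3.02 ± 0.15 in responder tumors (n = 2), with overlapping groups in each comparison.

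ICOSL, which supports follicular T cell and B cell responses through ICOS, was the only ligand called against IgG tumors without each tumor in turn. Icosl (ENSMUSG00000000732, chr10:78069302-78083913, plus strand) ranged from 6.75 to 12.8 CPM in IgG tumors with a median of 8.84, from 6.59 to 15.7 CPM in NR tumors with a median of 8.92, and stood at 72.8 CPM in R 15 and 23.4 CPM in R 16. Both responders exceeded all 14 other tumors. The log2 fold change was 2.25 ± 0.33 (SE) against NR (adjusted p = 0.000113) and 2.42 ± 0.31 against IgG (adjusted p = 1.97e-05). The latter stayed below 0.05 without each tumor in turn (log2 fold change from 1.31 to 2.96, adjusted p at most 0.0287). Against NR the call was lost without R 15 (1.14, adjusted p = 0.0900). Non-responders did not separate from IgG tumors (0.17 ± 0.24, adjusted p = 0.987), and the highest of them were NR 9 and NR 14 at 15.7 and 13.3 CPM. Both also had the highest mitochondrial shares of the NR tumors.

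Vsir (ENSMUSG00000020101, chr10:60346851-60372684, plus strand), which encodes VISTA, ranged from 28.4 to 52.2 CPM in IgG tumors with a median of 39.3, from 30.5 to 57.7 CPM in NR tumors with a median of 40.5, and reached 82.4 CPM in R 15 and 61.7 CPM in R 16. Both responders lay above all other tumors, R 16 by little. The log2 fold change was 0.77 ± 0.23 (SE) against NR (adjusted p = 0.0236) and 0.90 ± 0.21 against IgG (adjusted p = 0.00542), below 2-fold in both. Without R 15 these were 0.47 (adjusted p = 0.483) and 0.60 (adjusted p = 0.276), and without NR 10 the difference to NR had an adjusted p of 0.0596.

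The ligands of CD226 and TIGIT were called in none of the 4 comparisons. Pvr (ENSMUSG00000040511, chr7:19903578-19921160, minus strand) ranged from 43.0 to 77.9 CPM in IgG tumors with a median of 53.2, from 41.4 to 63.4 CPM in NR tumors with a median of 60.1, and stood at 46.9 and 60.6 CPM in the responders. Nectin2 (ENSMUSG00000062300, chr7:19716644-19750483, minus strand) ranged from 9.52 to 15.9, from 10.9 to 15.5 and from 12.8 to 13.9 CPM in these groups. Responders lay within the range of the NR tumors for both genes, and the log2 fold changes against NR were -0.08 ± 0.21 (SE) for Pvr and -0.03 ± 0.19 for Nectin2 (adjusted p = 0.859 and 0.935). The genes start 171 kb apart. Their log2 ratio per kilobase, Nectin2 to Pvr, was -1.35 ± 0.36 in IgG (n = 8), -1.23 ± 0.33 in NR (n = 6) and -1.18 ± 0.18 in responder tumors (n = 2).

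Cd276 (ENSMUSG00000035914, chr9:58524298-58555437, minus strand), which encodes B7-H3, a molecule found on tumor cells and stroma of many cancers, ranged from 3.49 to 9.13 CPM in IgG tumors with a median of 4.78, from 3.999 to 8.55 CPM in NR tumors with a median of 5.63, and stood at 7.42 and 6.13 CPM in R 15 and R 16. The groups overlapped in full, with a log2 fold change of 0.19 ± 0.36 (SE) between responders and NR tumors (adjusted p = 0.782). IgG 2 and IgG 8, at 9.13 and 8.28 CPM, and NR 11 and NR 13, at 8.55 and 7.58 CPM, were the highest tumors.

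Most of the receptors are carried mainly by T and NK cells. Of 11 receptor genes 10 were tested, and 7 were higher in responders than in non-responders where 15.4% of genes were: Cd28 by 3.55 on the log2 scale (adjusted p = 3.71e-06), Cd226 by 3.24, Cd96, a further PVR receptor, by 3.02, Icos by 2.63, Tigit by 1.86, Ctla4 by 1.45 and Selplg, a binding partner of VISTA, by 1.26. The median over the 10 was 1.65, against 0.60 for the ligands. Pdcd1, the target of the antibody, stood at 1.35 to 4.63 CPM in IgG tumors, 1.02 to 7.92 CPM in NR tumors and 7.36 and 9.76 CPM in R 15 and R 16, with a log2 fold change of 1.16 ± 0.57 (SE) against NR (adjusted p = 0.176) and 1.84 ± 0.53 against IgG (adjusted p = 0.0175). Igsf11, a VISTA partner, was too low to be tested, and Pvrig and Rgmb had adjusted p of 0.429 and 0.971 between responders and NR tumors. The log2 ratio of Cd86 to Cd28 per kilobase was 4.53 ± 0.55 in IgG (n = 8), 4.31 ± 0.42 in NR (n = 6) and 1.33 ± 0.21 in responder tumors (n = 2), both responders below all others. The exact permutation p was 0.0357 against NR and 0.0222 against IgG (adjusted p = 0.179 over 20 tests), and the Cd274 to Pdcd1 ratio overlapped between groups in each comparison. Summed T cell markers moved with these receptors, from 8.27 to 35.9 CPM in the 14 other tumors to 253 and 233 CPM in R 15 and R 16, and how far they account for the receptor values was not tested.

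Other ligands of these families were counted in the same way. Of 9 genes 7 were tested (Vtcn1 and Btn2a2 were too low), and 2 were higher in responders than in NR tumors, where 15.4% of all genes were. These were Btn1a1, a butyrophilin, by 4.31 (adjusted p = 0.0103) and Ildr2 by 2.35 (adjusted p = 0.0465). Btn1a1 stood at 3.13 CPM in R 15 and 0.478 CPM in R 16, against at most 0.231 CPM in NR tumors. Its highest IgG value was 0.889 CPM, so R 16 lay within the IgG range. Against IgG 4 of the 7 were higher, where 17.7% of all genes were, with Nectin4 (0.69, adjusted p = 0.0339) and Tnfrsf14, the ligand of BTLA (0.62, adjusted p = 0.0316), called as well. Nectin1, Nectin3 and Vsig4 were called in neither comparison.

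The genes upstream of PD-L1 in interferon gamma signaling were called in part. In responders against IgG, 5 of 8 were higher, where 17.7% of all genes were. Among the 5 were Ifng by 2.44 on the log2 scale (adjusted p = 0.00335), Jak1 by 0.73, Jak2 by 0.69 and the receptor chain Ifngr1 by 0.37. Of the interferon gamma targets 4 of 9 were higher (Ciita by 3.27, Ido1 by 2.80, Cxcl9 by 0.96 and Tap1 by 0.72). Against NR tumors 3 of 8 and 1 of 9 were higher, where 15.4% of all genes were. The 1 target was Ciita (2.71, adjusted p = 3.71e-05), the master regulator of MHC class II genes, which B cells also express. The median log2 fold change of the 9 targets was 0.09 between responders and NR tumors and 0.57 between NR and IgG tumors, where 0 of 9 were called and the 9 differences ranged from 0.29 to 1.29. Of 8 genes known to act on the PD-L1 protein, Cmtm6, which protects it from degradation, was higher in responders than in NR tumors (0.75, adjusted p = 0.00554), as was Hip1r, which directs it to lysosomes (1.32, adjusted p = 2.73e-05). Against IgG both were higher and Cops5, a deubiquitinase of PD-L1, was lower (-0.41, adjusted p = 0.0393). That made 2 of 8 higher and 1 lower, where 17.7% of all genes were higher and 5.17% lower.

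The 2 responders both exceeded every other tumor for Pdcd1lg2, Cd80, Cd86, Icosl and Vsir, but they differed from each other in the levels of several ligands. R 16 had 150 CPM of Cd274 against 70.9 CPM in R 15 and 13.6 against 3.61 CPM of Pdcd1lg2, whereas R 15 had 72.8 CPM of Icosl against 23.4 CPM in R 16 and 82.4 against 61.7 CPM of Vsir. Cd80 and Cd86 were nearly equal in the 2 tumors, at a log2 ratio of R 15 to R 16 of -0.15 and 0.07. Summed B cell markers were 1202 CPM in R 15 and 301 CPM in R 16, and lymph node stroma and high endothelial venule markers 423 and 130 CPM. Adipocyte markers were 491 and 83.9 CPM, T cell markers 253 and 233 CPM, dendritic cell markers 236 and 206 CPM and interferon gamma targets 1805 and 2439 CPM. With 1 tumor of each kind no test can be made.

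**Figure D4:**
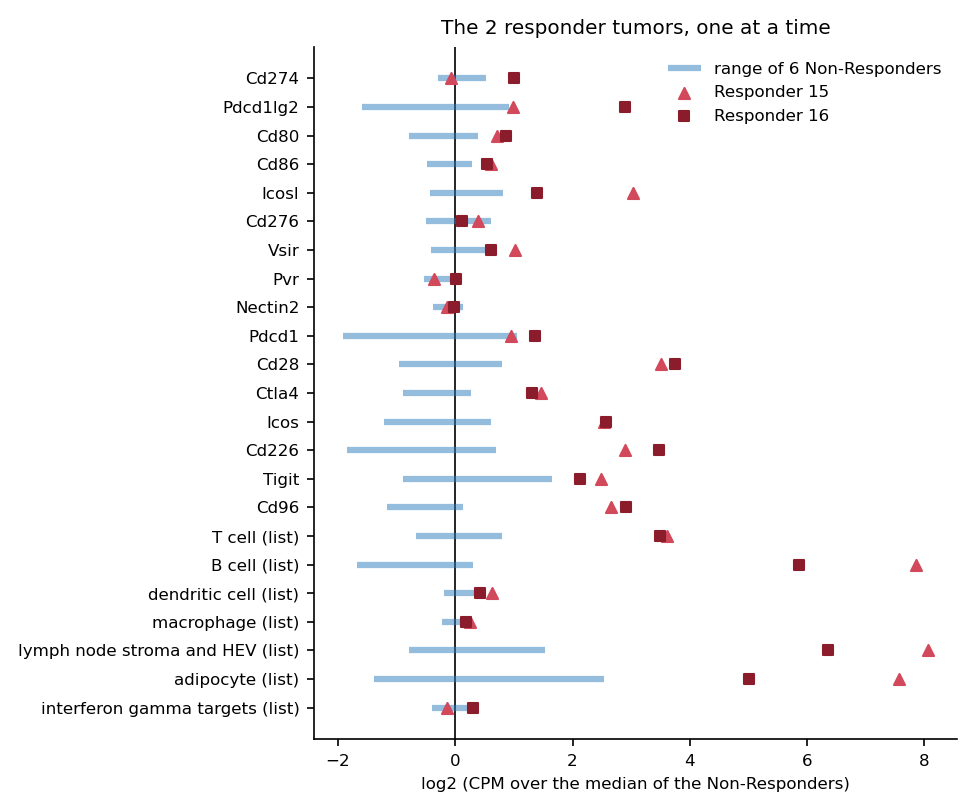
Level of each ligand, of 7 receptors and of summed marker lists in R 15 (triangles) and R 16 (squares), as log2 of CPM over the median of the 6 Non-Responders, whose range is the blue bar. R 16 lies above the Non-Responder range for Cd274 and R 15 within it, R 15 is further out for Icosl and for the B cell, lymph node stroma and adipocyte lists, and Cd276, Pvr and Nectin2 lie within the range in both.

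Over the 14 IgG and NR tumors, with the responders left out because they form a cluster of their own, 1 of the 36 pairs of ligands passed Benjamini-Hochberg adjustment. Cd274 and Cd86 had a Pearson r of 0.844 (100000 permutations, adjusted p = 0.00540) and a Spearman rho of 0.837 (adjusted p = 0.00828). The r was 0.805 without the 2 tumors farthest from the median of Cd274, 0.784 within the 8 IgG tumors and 0.860 within the 6 NR tumors, so the sign was the same within each group. Cd274 and Pdcd1lg2, the neighbors on chromosome 19, had an r of 0.554 (adjusted p = 0.256), which was -0.293 within IgG and 0.910 within NR tumors.

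Of the 81 pairs of a ligand and a marker list, 12 had a positive and 1 a negative r that passed adjustment. Cd274 went with the interferon gamma targets (r = 0.901, adjusted p = 0.00142, rho = 0.877 with adjusted p = 0.00189, r = 0.874 without the 2 farthest tumors), at 0.691 within IgG and 0.909 within NR tumors. Cd86 did so too (r = 0.835, adjusted p = 0.00486, rho = 0.749 with adjusted p = 0.0368), and it also went with the T cell list (r = 0.805, adjusted p = 0.00675, rho = 0.771 with adjusted p = 0.0282). Pdcd1lg2 went with the dendritic cell list (r = 0.873, adjusted p = 0.00142, rho = 0.837 with adjusted p = 0.00547), Vsir with the macrophage list (r = 0.849, adjusted p = 0.00142, rho = 0.886 with adjusted p = 0.00189) and Cd276 with the fibroblast list (r = 0.911, adjusted p = 0.00142, rho = 0.899 with adjusted p = 0.00189). The last held at 0.929 within IgG and 0.913 within NR tumors. The negative pair was Icosl and the macrophage list (r = -0.708, adjusted p = 0.0444), for which rho was -0.459 with an adjusted p of 0.327. The remaining 6 had r from 0.675 to 0.719 and adjusted p from 0.0441 to 0.04997, and 3 of them did not pass with rho. Without the 2 farthest tumors r was 0.735 and 0.692 for Cd86 with the interferon gamma targets and the T cell list, 0.795 for Pdcd1lg2 with the dendritic cell list, 0.777 for Vsir with the macrophage list, 0.867 for Cd276 with the fibroblast list, -0.534 for Icosl with the macrophage list and 0.510 to 0.823 for the remaining 6. Pvr and Nectin2 had no list that passed. All points of a tumor share 1 library, and the lists hold none of the 9 ligands. IgG 1, NR 9 and NR 14, the tumors of highest mitochondrial share, had the lowest macrophage means of the 14 (6.08, 6.30 and 6.39 log2 CPM). They also had the highest Icosl (12.8, 15.7 and 13.3 CPM) and the lowest Vsir (28.4, 30.5 and 32.8 CPM). The part of the mitochondrial share in the pairs with the macrophage list was not tested.

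**Figure D5:**
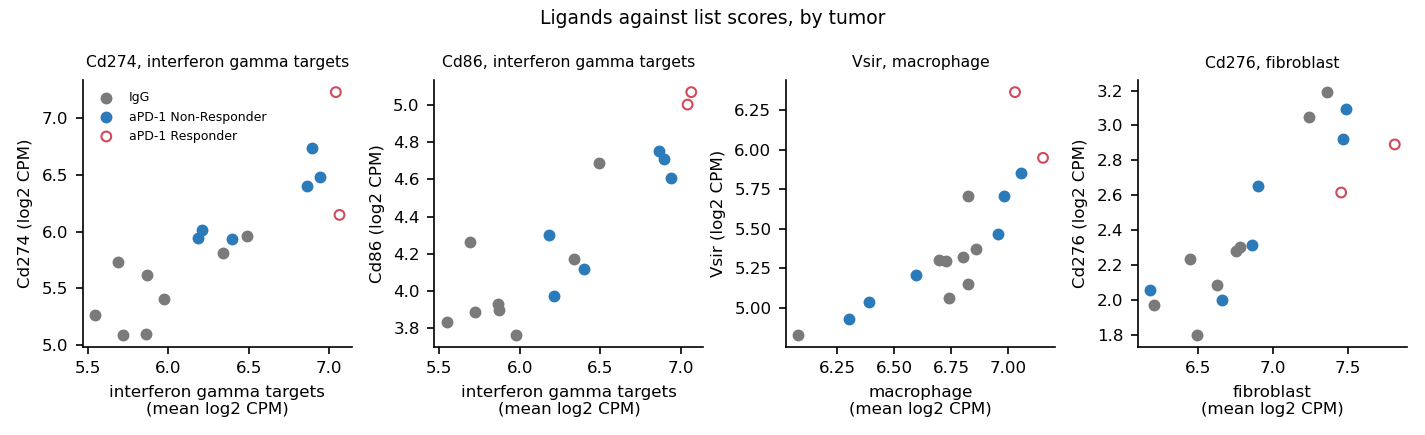
Log2 CPM of 4 ligands against the mean log2 CPM of a gene list, 1 point per tumor; grey is IgG, blue Non-Responder and open red Responder, the latter not used for r. Cd274 and Cd86 rise with the interferon gamma targets (r = 0.901 and 0.835 over 14 tumors), Vsir with the macrophage list (r = 0.849) and Cd276 with the fibroblast list (r = 0.911), and NR 11, NR 12 and NR 13 form the upper end of the blue points in the first 2 panels.

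Over the same 14 tumors, the genes whose log2 CPM was most like that of each ligand by Pearson r, among the first 3 for each, were the following. They are given as a description, from 13943 genes with a mean of at least 1 CPM over all 16 tumors, responders included. For Cd274 they were Gm4070, Acod1, the itaconate enzyme of activated macrophages, and Gbp5, a guanylate-binding protein, at r = 0.952, 0.949 and 0.946. For Cd86 they were Tnfrsf9, the costimulatory receptor 4-1BB, and Itm2b, at 0.901 and 0.897. For Pdcd1lg2 they were Tmem229b, Arhgap9 and Serpinb6b at 0.911, 0.875 and 0.862, and for Vsir Slc43a2, Tcn2 and Ehd4 at 0.917, 0.910 and 0.910. For Cd276 they were the collagen gene Col1a1, Kit and Pcdh1 at 0.936, 0.918 and 0.896, Col1a1 being also a gene of the fibroblast list. For Pvr they were Ero1l, an oxidase of the endoplasmic reticulum, Tor1aip2 and the pseudogene Gpr137b-ps, which may share reads with its parent gene, at 0.949, 0.940 and 0.928. For Icosl they were Lhx6, Gpr162 and Pim2 at 0.942, 0.940 and 0.931. For Nectin2 they were Fam102a, Snx33 and Sox7 at 0.916, 0.904 and 0.885, and for Cd80, which is low, they were Grrp1, Palmd and Unc13b at 0.895, 0.870 and 0.861.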

How the data were processed

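Bulk RNA-seq of 16 tumors was analysed. The authors used STAR 2.6 on GRCm38 (Ensembl 91 annotation), estimated expression with RSEM 1.3.0 and deposited expected counts per gene, which were rounded to whole numbers here. The 92 spike-in entries that name no gene, at most 185 counts in a tumor, were left out. Symbols were found for 53274 of 53465 identifiers, and gene positions and exon lengths came from GENCODE M21. Genes were filtered with filterByExpr, scaled by TMM and tested with the edgeR 4.0.16 quasi-likelihood test (Benjamini-Hochberg over 18251 genes), with 3 groups in 1 fit, or by treatment alone. Single ligands were compared on log2 CPM (prior count 2) by exact permutation tests and correlations by 100000 permutations. In chi-square tests of all 120 pairs of tumors the chi-square was at least 16.7 times its degrees of freedom, so no library was a copy. The scripts were tested on simulated counts. The ligands and lists were chosen with earlier results of these data known, and the motifs after the promoter sequences had been looked at. Named genes are the 9 ligands, the receptors and called genes of the lists, the 3 genes most like each ligand and genes starting within 200 kb of Cd274 or Pdcd1lg2. A gene that this rule names is not reported here. Alternatives were DESeq2 1.42.0, median-of-ratios size factors, no filter, at least 10 counts in 8 tumors, only the groups compared, a prior count of 0.5 and leaving out each tumor. R 4.3.3 and Python 3.11.15 with scipy 1.17.1 were used. Pdcd1lg2 and Cd80 had the fewest counts of the 9 ligands, at means of 75.3 and 82.3 per tumor. Counting error was not set against the spread between tumors.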

Additional observations from a re-analysis of the deposited data

Results flagged for a closer look

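Among the 18 sets of values formed by the 9 ligands in the IgG and the non-responder tumors, 1 held a tumor apart from the rest by Dixon's criterion, and chance alone marks about 1 in 20 such sets. It was Cd86 in IgG 8, at 25.7 CPM against 19.2 CPM in the next highest IgG tumor, a gap of 0.537 of the range of the group, just past the critical value for 8 samples. Without IgG 8 the difference of Cd86 between responders and non-responders had an adjusted p of 0.0397 in place of 0.0819, by edgeR over all genes tested. IgG 8 was also the highest IgG tumor for Cd274 (62.5 CPM) and Vsir (52.2 CPM).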

How the results depend on the processing

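No paired analysis was possible because the replicate numbers of the labels are not shared between groups. Of 216 log2 fold changes of single ligands under settings other than leaving out a tumor, 205 kept their sign and their side of the threshold, 3 lost the call, 5 gained it and 3 changed sign. The calls lost were between responders and non-responders, for Pdcd1lg2 without a filter (adjusted p = 0.0653) and without the 3 tumors of highest mitochondrial share (0.0825, a setting added after the data were seen) and for Vsir with only those groups (0.0515), so that ligands called with a 2-fold change fell from 2 to 1 in both former settings. All treated against IgG tumors had 2 ligands called with DESeq2 (1 with a 2-fold change). The weighted fit of 3 groups, also with edgeR, called 1, where the main edgeR fit, by treatment alone, called 0. How many of all genes the weighted fit called was not counted. The sign changes were Pvr between non-responders and IgG (-0.0056 with DESeq2 and -0.0056 with median-of-ratios size factors) and Icosl there (-0.091 without the 3 tumors). Within the 8 IgG tumors alone 0 pairs of ligands passed adjustment.

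Leaving out each tumor moved the ligands called between responders and non-responders from 3 to 0 to 3 (0 to 2 with a 2-fold change), with 0 without R 15 and 1 without NR 10, and against IgG from 5 to 3 to 6, with 3 without R 15 or R 16. A lone responder was assumed to vary like the other groups. The share of all genes called was not counted in the runs that left out a tumor. A lower count of ligands there cannot be told apart from fewer calls over all genes. Correlated pairs of ligands ranged from 1 to 2 and ligand and list pairs from 6 to 15, and ligands with an exact p below 0.05 from 1 to 4 between responders and non-responders and from 1 to 3 between non-responders and IgG. Signs changed within these ranges of log2 fold changes: between responders and non-responders Cd274 from -0.19 to 0.88, Cd276 from -0.022 to 0.33, Pvr from -0.33 to 0.026 and Nectin2 from -0.15 to 0.0053. Between responders and IgG they were Pvr from -0.33 to 0.023 and Nectin2 from -0.025 to 0.13, between non-responders and IgG Icosl from -0.00050 to 0.27, Cd276 from -0.012 to 0.27 and Pvr from -0.040 to 0.079, and between treated and IgG tumors Pvr from -0.074 to 0.060. The log2 ratios were Cd86 to Cd80 from -0.23 to 0.011 (responders minus IgG) and -0.044 to 0.19 (treated minus IgG), Cd274 to Pdcd1 from -0.15 to 0.23 (treated minus IgG) and Nectin2 to Pvr from -0.030 to 0.14 (responders minus non-responders). The cause was not tested. The order of levels could not be tested with 5 non-responders, nor single ligands by exact tests with 1 responder.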

Other observations

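Rgmb, which binds PD-L2, stood at 15.2 and 19.5 CPM in R 15 and R 16, within its range of 13.8 to 22.1 CPM in non-responders. Selplg stood at 54.6 and 61.8 CPM in R 15 and R 16, above its range of 17.3 to 31.5 CPM in non-responders. Summed endothelial markers were 328 CPM in R 15 and 173 CPM in R 16 against 37.6 to 148 CPM in non-responders, and summed macrophage markers were 1621 and 1548 CPM against 1173 to 1681 CPM.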
